A study of Mus musculus with 26 samples.

Results

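The major histocompatibility complex (MHC) class II genes were followed here in mouse hindlimb muscle under calorie restriction. They were 8 genes: Cd74, H2-Aa, H2-Ab1, H2-Eb1, H2-DMa, H2-DMb2, H2-Oa and Ciita. They were read through the probe sets whose gene symbol in the platform annotation was exactly 1 of these names, which gave 18 of the 45101 probe sets on the array. A probe set is a group of short array probes read as 1 value. The genes were selected on their response to calorie restriction in these same arrays, so their diet values are given as a description, with no test. The genotype differences and the way the genes varied together among mice of a group, which the choice did not use, were tested. So was the difference between the diet effects, which shares its arrays with the diet contrasts that chose the genes.

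MHC class II molecules sit on antigen-presenting cells such as dendritic cells, macrophages and B cells, and show peptides from engulfed protein to CD4+ T cells. An alpha and a beta chain are assembled in the endoplasmic reticulum on the invariant chain, which is cut down in endosomes and exchanged for a peptide with the help of DM, while DO restrains DM. Transcription of these genes depends on CIITA, a coactivator that acts through factors bound to the X and Y boxes of their promoters, and interferon gamma induces CIITA. Resting muscle fibres carry little class II, and in muscle tissue it is known mainly from resident macrophages and dendritic cells.

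RNA of fast lower-leg muscle, tibialis anterior with extensor digitorum longus (TA/EDL), was measured on 1-colour Affymetrix arrays, with 1 array for each of 26 mice. The 4 groups were 7 MKO mice on calorie restriction (CR), 7 MKO mice on the control diet, 6 FLOX mice on CR and 6 FLOX mice on the control diet. MKO mice are labelled as lacking PGC-1a in skeletal muscle and FLOX mice carry the floxed allele only. All were littermates housed singly, of mixed C57/BL6 and 129 background, and the diets ran for 12 weeks. CR mice received 80% of their free intake for the first week and then 60% of it as a diet made for 40% restriction, while control mice received 90% of it throughout. The promoter that drives the deletion and the age of the mice are not stated. The labels do not say which mice shared a litter, so litter could not enter the fit. Mice were treated as independent, and the p-values measure the spread between these mice.

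The values were the authors' linear intensities, analysed as log2(intensity + 16), a scale that understates changes of dim genes. The number of arrays limits the precision. The 26 arrays had similar medians, 212 to 232, and correlations within groups were 0.984 or higher. The 8 fast muscle fibre markers were bright on every array, with summed intensities of 239356 to 246240 in CR MKO, 239081 to 249429 in control-diet MKO, 244036 to 245888 in CR FLOX and 234656 to 246097 in control-diet FLOX. All 5 probe sets of Ppargc1a, which encodes PGC-1a, were brighter in mice labelled MKO than in FLOX mice (1.34 to 1.57-fold with CR, 1.53 to 1.76-fold with the control diet), and all 5 passed the test on both diets (limma, adjusted p under 0.05). Their place relative to the deleted part is not stated in the sources used here, so this does not check the genotype labels, and each genotype difference below is between mice so labelled.

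Promoter windows from RefSeq are shown because class II promoters are known for their X and Y boxes. They are given for 2 members whose signal was lower on CR, H2-Eb1 and H2-Aa, and for 2 with smaller changes, H2-DMb2 and H2-Oa. Each window runs from 250 bases before to 50 bases after the annotated start, 5′ to 3′ on the gene's strand, in build GRCm38.p6. H2-Eb1 is at chr17:34305617-34305916 on the plus strand, H2-Aa at chr17:34287774-34288073 on the minus strand, H2-DMb2 at chr17:34144999-34145298 on the plus strand and H2-Oa at chr17:34092129-34092428 on the plus strand. Capitals mark the letters of the X box core, GNNACNNAT, and of the Y box core, ATTGG, on either strand.
H2-Eb1: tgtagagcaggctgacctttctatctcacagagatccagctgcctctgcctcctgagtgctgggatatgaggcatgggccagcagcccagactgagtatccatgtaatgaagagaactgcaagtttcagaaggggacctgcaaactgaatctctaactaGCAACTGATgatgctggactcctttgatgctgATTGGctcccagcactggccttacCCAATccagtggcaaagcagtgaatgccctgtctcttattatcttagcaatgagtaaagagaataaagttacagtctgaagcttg
H2-Aa: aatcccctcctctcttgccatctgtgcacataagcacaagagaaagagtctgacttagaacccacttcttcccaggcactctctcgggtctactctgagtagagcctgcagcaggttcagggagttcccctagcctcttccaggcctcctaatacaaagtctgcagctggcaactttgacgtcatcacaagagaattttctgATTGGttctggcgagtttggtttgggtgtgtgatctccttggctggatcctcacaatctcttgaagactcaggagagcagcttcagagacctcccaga
H2-DMb2: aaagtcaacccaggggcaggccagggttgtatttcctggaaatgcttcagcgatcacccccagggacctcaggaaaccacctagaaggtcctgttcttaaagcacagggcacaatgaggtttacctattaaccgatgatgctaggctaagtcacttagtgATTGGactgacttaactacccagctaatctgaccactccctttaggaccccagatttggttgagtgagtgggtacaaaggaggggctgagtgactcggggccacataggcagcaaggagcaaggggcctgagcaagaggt
H2-Oa: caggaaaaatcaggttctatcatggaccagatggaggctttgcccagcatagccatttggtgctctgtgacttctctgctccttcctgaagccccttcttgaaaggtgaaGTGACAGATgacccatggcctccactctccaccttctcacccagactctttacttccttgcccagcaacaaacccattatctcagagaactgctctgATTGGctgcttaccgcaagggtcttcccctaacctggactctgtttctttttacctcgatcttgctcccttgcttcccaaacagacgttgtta

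The H2-Eb1 window held an X core 91 bases and a Y core 59 bases before the start, 32 bases apart. The last capitals in it are a second Y core, read on the other strand. H2-Aa and H2-DMb2 held a Y core with no X core, 48 and 90 bases before the start. H2-Oa held both, 140 and 43 bases before the start, too far apart to count as a pair, which was set as a Y core starting 15 to 40 bases after the X core on the same strand. By letters alone these cores are common: of all 32851 promoter windows, 25.3% held the X core, 37.4% the Y core and 0.645% the pair. Of the 8 members 5 matched an entry, and H2-DMa, with 2 windows, held no pair in either. Cd74, H2-Ab1 and Ciita had no entry. These matches describe letters in a window and do not show binding. A window without these exact letters can still hold an X or Y box spelled otherwise.

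On CR, the invariant chain and the classical class II chains were lower in muscle of both genotypes, whereas the DM beta chain, the DO alpha chain and the coactivator Ciita differed little from the control diet. The median log2 change over the 8 genes, at the brightest probe set of each, was -0.27 in MKO and -0.26 in FLOX, against 0.00 over all genes in both. Of the 8 genes, 8 were lower in MKO and 6 in FLOX, where the 2 others, Ciita and H2-DMb2, had values of 0.03 and 0.01. Over all genes, 49.5% were lower in MKO and 49.4% in FLOX. The MKO count includes small changes, H2-Oa at -0.06, Ciita at -0.04 and H2-DMb2 at -0.02. Over all 18 probe sets, 15 were lower in each genotype. In bulk muscle, fewer cells of a type and less RNA per cell cannot be told apart.

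Cd74 encodes the invariant chain, the chaperone of the class II dimer. Its intensity was 246 at the lowest, 311 at the median and 612 at the highest in CR MKO muscle, against 720, 898 and 2007 in control-diet MKO muscle. In CR FLOX muscle the same 3 values were 207, 365 and 545, against 706, 1078 and 1455 in control-diet FLOX muscle. Every CR mouse therefore lay below every control-diet mouse of its genotype. The log2 change was -1.62 ± 0.23 in MKO (SE of the limma fit), which is 3.07-fold lower, and -1.49 ± 0.25 in FLOX, 2.82-fold lower. By group mean, from the lowest, the order of Cd74 was CR MKO at 344 ± 126 (SD, n = 7), CR FLOX at 376 ± 128 (SD, n = 6), control-diet FLOX at 1084 ± 345 (SD, n = 6) and control-diet MKO at 1101 ± 439 (SD, n = 7). The first pair and the last pair in that order differed by less than their SDs, and the gap lay between the diets.

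**Figure D1:**
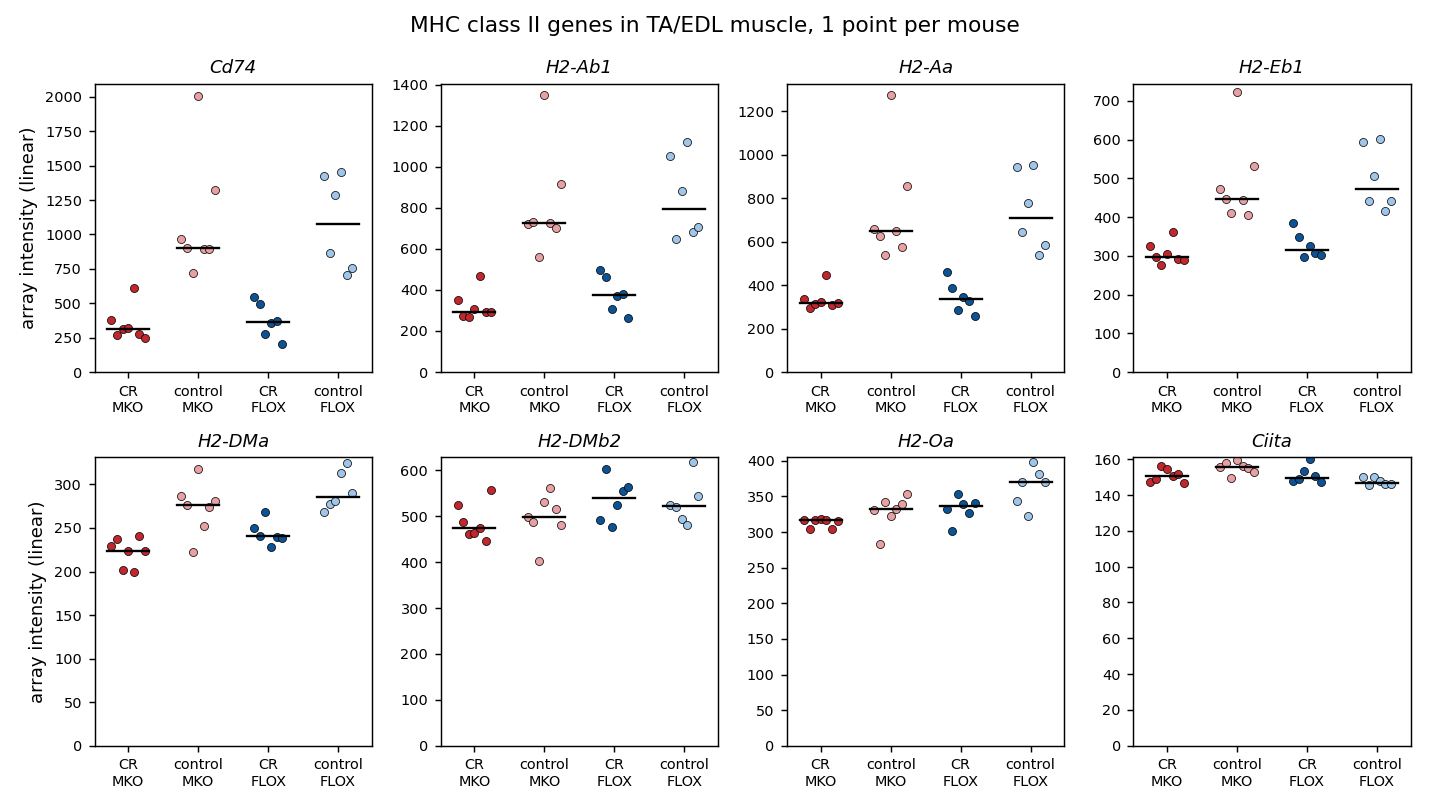
Linear array intensity of the 8 genes in TA/EDL muscle, 1 point per mouse and a line at the group median, with CR MKO, control-diet MKO, CR FLOX and control-diet FLOX from left to right; 1 probe set is shown for each gene, 1438858_x_at for H2-Aa and the brightest for the others. Cd74, H2-Ab1, H2-Aa and H2-Eb1 separate by diet in both genotypes (Cd74 medians of 311 and 898 in MKO and of 365 and 1078 in FLOX), while H2-DMb2, H2-Oa and Ciita overlap, as does the brightest H2-Aa probe set, which is not plotted.

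H2-Ab1 encodes the beta chain of the A molecule, 1 of the classical mouse class II proteins. Probe set 1450648_s_at read 267, 295 and 468 (lowest, median, highest) in CR MKO, against 559, 724 and 1350 in control-diet MKO. In CR FLOX it read 262, 375 and 496, against 645, 793 and 1120 in control-diet FLOX. The groups did not overlap in either genotype, and the log2 changes were -1.27 ± 0.17 in MKO and -1.12 ± 0.18 in FLOX, or 2.41 and 2.18-fold lower. The other 2 probe sets of the gene moved the same way by less, -0.47 and -0.51 in MKO and -0.42 and -0.46 in FLOX.

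H2-Aa encodes the alpha chain that pairs with H2-Ab1, and its 4 probe sets gave different sizes. The brightest, 1435290_x_at, read 901, 947 and 1026 in CR MKO against 951, 1161 and 1619 in control-diet MKO, and 886, 1031 and 1091 in CR FLOX against 1090, 1238 and 1399 in control-diet FLOX. Those ranges overlapped in both genotypes, and the log2 changes were only -0.26 ± 0.08 in MKO and -0.28 ± 0.09 in FLOX. Probe set 1438858_x_at read 292, 316 and 448 in CR MKO against 539, 647 and 1276 in control-diet MKO, and 258, 336 and 459 in CR FLOX against 536, 710 and 954 in control-diet FLOX. Here no CR mouse reached any control-diet mouse of its genotype, with log2 changes of -1.07 ± 0.16 in MKO and -1.06 ± 0.17 in FLOX. Probe set 1452431_s_at lay at -0.87 in MKO and -0.85 in FLOX, and 1443783_x_at, which was too dim to pass the filter, at -0.32 and -0.27. Which of these probe sets best tracks the transcript was not tested, so the size of the H2-Aa change is uncertain by that range.

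H2-Eb1 encodes the beta chain of the E molecule, and its window above is the only 1 of the 4 shown with the X and Y cores as a pair. It read 276, 297 and 363 in CR MKO against 405, 445 and 722 in control-diet MKO. In CR FLOX it read 298, 316 and 384 against 417, 474 and 602 in control-diet FLOX. The groups were again apart in both genotypes, with log2 changes of -0.63 ± 0.10 in MKO and -0.58 ± 0.11 in FLOX.

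The peptide-editing members had smaller diet changes. For the DM alpha chain H2-DMa, probe set 1459872_x_at read 200, 224 and 241 in CR MKO against 223, 277 and 318 in control-diet MKO, and 229, 240 and 269 in CR FLOX against 269, 286 and 325 in control-diet FLOX. The MKO groups overlapped while the FLOX groups just failed to touch, and the log2 changes were -0.27 ± 0.06 in MKO and -0.24 ± 0.06 in FLOX. Its other probe set, 1422527_at, stood at 0.02 in MKO and 0.00 in FLOX, so a lower H2-DMa signal rests on 1 of 2 probe sets. The DM beta chain H2-DMb2 had log2 changes of -0.05 to -0.02 in MKO and -0.10 to 0.01 in FLOX over 3 probe sets. H2-Oa, the alpha chain of DO, read 305, 317 and 318 in CR MKO against 283, 333 and 354 in control-diet MKO, and 302, 336 and 353 in CR FLOX against 322, 370 and 399 in control-diet FLOX. Its groups overlapped, with log2 changes of -0.06 ± 0.04 in MKO and -0.12 ± 0.05 in FLOX.

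Ciita, the coactivator on which the other members depend, was dim: all 3 of its probe sets lay under the filter on dim values (30th percentile, log2 7.47) and were left out of the test by gene. Its brightest probe set read 147, 151 and 156 in CR MKO against 149, 156 and 160 in control-diet MKO, and 147, 150 and 160 in CR FLOX against 145, 147 and 150 in control-diet FLOX. The log2 changes over the 3 probe sets ran from -0.04 to 0.04 in MKO and from -0.03 to 0.03 in FLOX. Its groups overlapped in both genotypes. In a fit over all probe sets without the filter, the dimmest of the 3, 1447075_at, was lower in MKO averaged over the diets. It stood at -0.06 (limma adjusted p = 0.0444). The brightest, 1421210_at, went the other way at 0.03, and 1421211_a_at stood at -0.01, and neither passed. The share of all probe sets called in that fit is not given here, so nothing is read from this call.

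Counted over genes, 3 of 8 did not overlap in MKO (Cd74, H2-Ab1 and H2-Eb1) and 4 of 8 in FLOX (the same 3 and H2-DMa), all lower on CR. Over all 14847 genes, such separation downward occurred in 2.03% in MKO and 3.08% in FLOX. Since the diet response chose the genes, nothing is read from that. Over the 18 probe sets, some of which share a gene, 7 in MKO and 8 in FLOX were apart. The share over all probe sets is not given here, so nothing is read from that count either. The filter was passed by 13 of the 18. Of the 18, 8 have IDs ending in _s_at or _x_at, the maker's mark for probes that can match several transcripts.

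**Figure D2:**
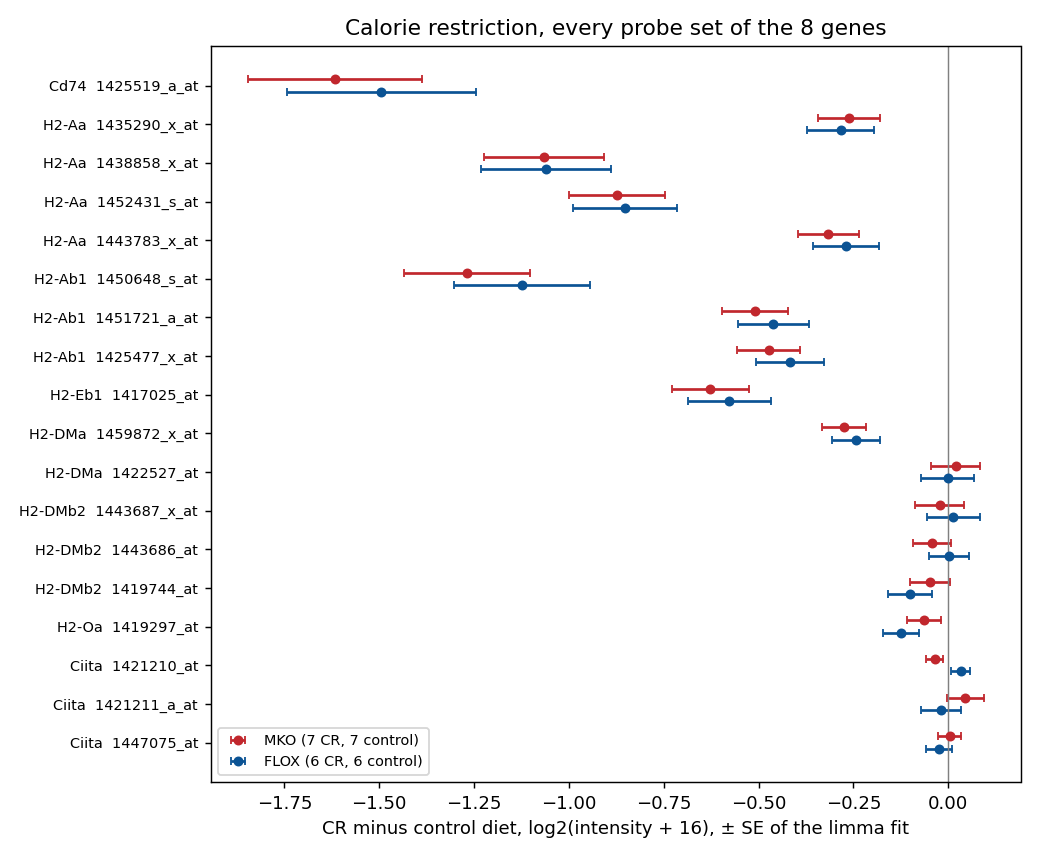
Log2 change, CR minus control diet, with the SE of the limma fit as bars, for every probe set of the 8 genes (1 row each), in MKO (red) and FLOX (blue). Cd74 lies farthest left at -1.62 and -1.49, the probe sets of H2-Aa spread from -1.07 to -0.26, and those of H2-DMb2 and Ciita lie around 0.

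Whether the genotype label moved these genes was tested with limma over all 26 arrays, with Benjamini-Hochberg adjustment over 14847 genes, and 7 of the 8 members entered the test. On the control diet 1 of 7, H2-Oa, was called lower in MKO, at a log2 difference of -0.14 ± 0.05 (limma adjusted p = 0.0318), where 10.2% of all genes were called lower and 9.06% higher. On CR no member was called, and 1 had an unadjusted p under 0.05, while 9.05% of all genes were called lower and 8.23% higher. Averaged over the diets, a comparison independent of the diet effect, 2 of 7 were called lower, where 18.1% of all genes were called lower and 14.9% higher. Those 2 were H2-Oa at -0.11 ± 0.03 (limma adjusted p = 0.0107) and H2-DMa at -0.11 ± 0.04 (limma adjusted p = 0.0412), or 1.08-fold lower each. These shares are close to those of all genes. The control-diet call of H2-Oa was lost when array medians were centred, at an adjusted p of 0.0671, and so was that of H2-DMa averaged over the diets, at 0.0679 (limma). The control-diet call of H2-Oa also ended without control-diet MKO mouse 2 or 4 or control-diet FLOX mouse 2, 4, 5 or 6. That of H2-DMa ended without CR MKO mouse 3 or 5, control-diet MKO mouse 3 or 5, CR FLOX mouse 1, 2 or 3, or control-diet FLOX mouse 4, 5 or 6 (limma adjusted p from 0.0523 to 0.0814). Its other probe set, 1422527_at, stood at -0.14 averaged over the diets. In the fit over all probe sets without the filter, its limma adjusted p was 0.0286, against 0.0488 for 1459872_x_at.

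The classical chains and Cd74 did not pass in any of the genotype comparisons, but the intervals of the more variable genes are wide. Cd74 differed between MKO and FLOX by -0.11 on CR, with a 95% interval from -0.61 to 0.38, and by 0.01 on the control diet, from -0.48 to 0.50. For H2-Ab1 the differences were -0.22 on CR (from -0.57 to 0.13) and -0.07 on the control diet (from -0.43 to 0.28). H2-Eb1 was held more tightly, at -0.09 (from -0.31 to 0.13) on CR and -0.04 (from -0.25 to 0.18) on the control diet. H2-Aa differed by -0.11 on the control diet (limma adjusted p = 0.394). Without control-diet MKO mouse 4 and CR MKO mouse 5, whose class II values stood apart from their groups, H2-Aa was called lower in MKO on the control diet at -0.19 (limma adjusted p = 0.0425) and averaged over the diets at -0.15 (limma adjusted p = 0.0149), while H2-Oa on the control diet was not called (limma adjusted p = 0.062).

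The diet effect itself did not differ detectably between the genotypes. The test of this shares its arrays with the diet contrasts that chose the genes. The interaction, the CR effect in MKO minus that in FLOX, was called for 0 of the 7 members tested and for 0% of the 14847 genes by limma, with 0 members and 720 genes at an unadjusted p under 0.05. It was -0.12 for Cd74 (95% interval -0.82 to 0.57), -0.14 for H2-Ab1 (-0.64 to 0.35), 0.02 for H2-Aa (-0.23 to 0.27) and -0.05 for H2-Eb1 (-0.36 to 0.26). For Cd74 a difference in response of as much as 0.82 on the log2 scale lies inside that interval. With both of those mice left out, the CR change in MKO was -1.61 for Cd74, -1.23 for H2-Ab1, -0.82 for H2-Aa at 1452431_s_at and -0.57 for H2-Eb1. Leaving out any 1 of the 26 mice kept Cd74 between -1.76 and -1.46 in MKO and between -1.61 and -1.35 in FLOX.

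**Figure D3:**
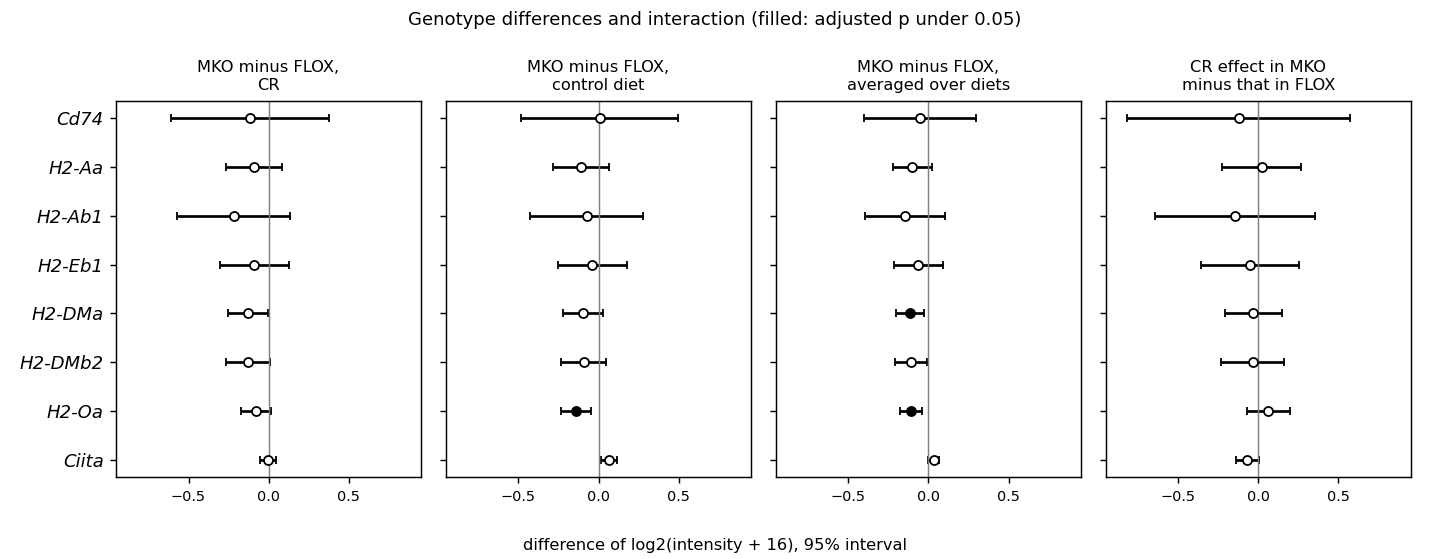
Differences in log2(intensity + 16) with 95% intervals for the brightest probe set of each gene: MKO minus FLOX on CR, on the control diet and averaged over the diets, and the CR effect in MKO minus that in FLOX; filled points have a limma adjusted p under 0.05, and Ciita was left out of that test. The filled points are H2-Oa on the control diet (-0.14) and H2-Oa and H2-DMa averaged over the diets (both -0.11).

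Among mice of the same group, Cd74 and the classical chains varied together, and no pair with another member passed the test. This was measured on each mouse's deviation from its group mean, which removes diet and genotype, over 26 mice and 28 pairs of genes. The 6 pairs among Cd74, H2-Ab1, H2-Aa and H2-Eb1 had Pearson r from 0.787 to 0.963 and all passed (permutation test within groups, adjusted p = 4.67e-05 each, which rests on the smallest p that these permutations can give, 1e-05). Cd74 and H2-Ab1 were the closest pair, with r = 0.963, Spearman rho = 0.924 and r = 0.947 without the 2 mice farthest out. None of the other 22 pairs passed after adjustment. Against the mean of the other members, H2-DMa had r = 0.247, H2-DMb2 0.0413 and H2-Oa -0.148, compared with 0.844 to 0.964 for the 4 genes that moved together.

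**Figure D4:**
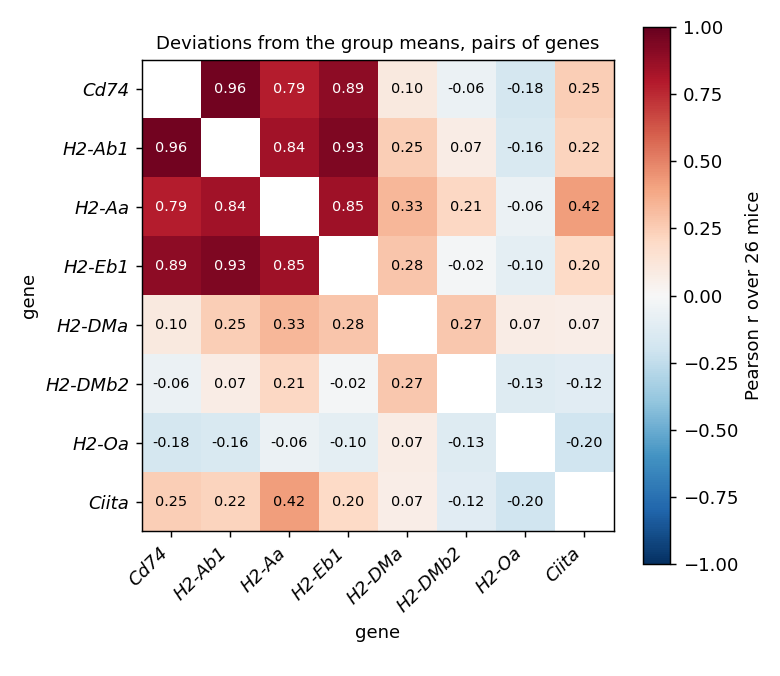
Pearson r between pairs of the 8 genes, each computed over 26 mice from deviations from the group means (red positive, blue negative, the diagonal left blank). The block of Cd74, H2-Ab1, H2-Aa and H2-Eb1 at the upper left has r from 0.79 to 0.96, and the other pairs run from -0.20 to 0.42.

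The 6 genes outside the group whose deviations were most like the members' mean deviation were Ifitm3 (r = 0.803), B2m (r = 0.795), Tapbp (r = 0.791), Cybb (r = 0.783), C1qb (r = 0.779) and Ppic (r = 0.776), over 26 mice. B2m encodes the light chain of MHC class I and Tapbp its loading chaperone tapasin. Ifitm3 is an interferon-induced membrane protein, Cybb a subunit of the phagocyte oxidase, C1qb a chain of complement C1q made by macrophages, and Ppic a cyclophilin. Of these, B2m fell on CR by 0.49 in MKO (log2, limma adjusted p = 0.00237) and by 0.57 in FLOX (limma adjusted p = 0.00188). Ppic fell by 0.49 in MKO (limma adjusted p = 6.8e-06) and by 0.41 in FLOX (limma adjusted p = 0.000251). Ifitm3 passed in MKO at -0.29 (limma adjusted p = 0.0281) and not in FLOX, where it stood at -0.29 (limma adjusted p = 0.0547). Tapbp, Cybb and C1qb did not pass in either.

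In the rest of the class II pathway, larger shares were called lower on CR than over all genes. The list medians were small. The list was chosen with earlier results of these data known, so nothing more is read from those shares. Of 40 listed genes that load, edit, transcribe or bind class II, 35 were tested. In MKO 6 were called lower and 1 higher on CR, where 8.49% of all genes were called lower and 6.64% higher, and the median over the list was -0.03. In FLOX 7 were called lower and 2 higher, where 5.37% of all genes were called lower and 4.66% higher, and the median was -0.04. At an unadjusted p under 0.05 (limma) there were 13 in each genotype. Without control-diet FLOX mouse 5 the 9 calls in FLOX came to 5. The processing gene Cst3, which encodes cystatin C, an inhibitor of cysteine cathepsins, fell in both genotypes, by 0.32 in MKO (limma adjusted p = 0.000197) and by 0.27 in FLOX (limma adjusted p = 0.00423). Cd44, a signalling partner of surface Cd74, fell by 0.43 in MKO (limma adjusted p = 0.0048). Cxcr4, another, fell by 0.23 in MKO and by 0.29 in FLOX. Ddt, a cytokine that binds Cd74, was higher on CR in both, at 0.20 in MKO and 0.34 in FLOX. Among transcription factors, Creb1 fell by 0.16 in MKO and by 0.12 in FLOX, and Irf1 fell by 0.20 in MKO. Rfxap, a subunit of the factor that binds the X box, fell by 0.17 in FLOX. That call was lost when the passing probe sets of each gene were averaged (limma adjusted p = 0.234). The interactions of Cd44 and Irf1 were -0.17 and -0.07 and were not called (limma adjusted p = 0.999 each).

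Between genotypes, 5 of the 35 pathway genes were called lower in MKO on CR and 3 higher, with a median of -0.03, where 9.05% of all genes were called lower and 8.23% higher. On the control diet 8 were called lower and 3 higher, with a median of -0.04, where 10.2% of all genes were called lower and 9.06% higher, and leaving out mouse 5 or mouse 6 of the control-diet FLOX group gave 6 and 5 calls in place of 11. Sppl2a, a protease that cleaves the membrane stub left from Cd74, averaged 2871 ± 189 in CR MKO and 2026 ± 99.2 in CR FLOX (SD, n = 7 and 6), and 3152 ± 189 in control-diet MKO and 2292 ± 190 in control-diet FLOX. Its log2 difference was 0.50 on CR (limma adjusted p = 5.98e-08) and 0.46 on the control diet (limma adjusted p = 4.16e-07). Ctsl, the cathepsin L gene, was also higher in MKO, at 0.44 on CR and 0.34 on the control diet. The Cd74 ligands Mif and Ddt were lower in MKO on both diets, at -0.45 and -0.37 on CR and at -0.34 and -0.23 on the control diet.

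The list of interferon gamma receptor, signal and target genes, 16 of 19 tested, held lower receptor components on CR. In MKO 4 were called lower and 0 higher, where 8.49% of all genes were called lower and 6.64% higher. In FLOX 3 were called lower and 0 higher, where 5.37% of all genes were called lower and 4.66% higher. The medians were -0.22 in MKO and -0.09 in FLOX. At an unadjusted p under 0.05 there were 8 in MKO and 3 in FLOX. The receptor chains Ifngr2 and Ifngr1 and the kinase Jak1 fell in both genotypes, with Ifngr2 at -0.27 in MKO (limma adjusted p = 0.000328) and at -0.34 in FLOX (limma adjusted p = 0.000128). The FLOX call of Jak1, at -0.19 (limma adjusted p = 0.0351), was lost with median centring (0.0578) and without CR FLOX mouse 2, 3 or 6 or control-diet FLOX mouse 3, 4, 5 or 6 (0.0552 to 0.0762). Iigp1, an interferon-induced GTPase, averaged 257 ± 59.4 in CR MKO and 652 ± 417 in control-diet MKO (SD, n = 7 each), at -1.13 (limma adjusted p = 0.0106). Its interaction was -0.59 and was not called (limma adjusted p = 0.999). Between genotypes 2 genes were called on CR, where 1 remained without CR MKO mouse 2 or 4 or CR FLOX mouse 2 or 6, and 1 on the control diet, where 2 were called without control-diet MKO mouse 1, all higher in MKO in the full set, where 8.23% of all genes were called higher on CR and 9.06% on the control diet. Gbp6, a guanylate-binding protein, was 2.17-fold higher in MKO on CR and 2.64-fold higher on the control diet.

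Markers of the cells that carry class II were set beside the members. Over all genes, 8.49% were called lower on CR in MKO and 5.37% in FLOX. Under CR, 0 of 14 macrophage markers were called in MKO, with 0 at an unadjusted p under 0.05, and 1 of 14, Adgre1 at -0.15, was called lower in FLOX, with 4 at an unadjusted p under 0.05. Of the 14, 12 had a negative log2 change on CR in each genotype, with medians of -0.04 in MKO and -0.09 in FLOX. C1qb, at -0.18 in FLOX, was called without CR FLOX mouse 2 (limma adjusted p = 0.0437). The Adgre1 call was lost without CR FLOX mouse 1, 5 or 6 or control-diet FLOX mouse 3, 4 or 5 (limma adjusted p from 0.0517 to 0.0876). Their summed intensity ran from 5070 to 6377 in CR MKO and 5357 to 6789 in control-diet MKO, and from 5200 to 7169 in CR FLOX and 5896 to 6863 in control-diet FLOX, so all these ranges overlapped. None of the 6 dendritic cell, 3 B cell, 4 T and NK cell and 5 pan-leukocyte markers tested was called by limma in either genotype, with 1, the dendritic cell marker Zbtb46 in FLOX, at an unadjusted p under 0.05. With the passing probe sets of each gene averaged, the pan-leukocyte marker Coro1a was called lower on CR in MKO at -0.16 (limma adjusted p = 0.0167). The dendritic cell sums were 1392 to 1562 in CR MKO and 1406 to 1646 in control-diet MKO, and 1482 to 1685 in CR FLOX and 1521 to 1706 in control-diet FLOX. The pan-leukocyte sums also overlapped, at 1190 to 1418 in CR MKO and 1200 to 1508 in control-diet MKO, and at 1210 to 1423 in CR FLOX and 1237 to 1594 in control-diet FLOX. The B cell and the T and NK cell sums overlapped in the same way. The array lists no value at 0, but the defining markers Itgam, Timd4, Ccr7, Cd79b, Ms4a1 and Cd3g were under the filter. Bright markers weigh most in these sums, so their overlap says little about dim ones. In CR MKO, Csf1r averaged 1694, while Cd68 averaged 173 and Cd79a 162, below the array medians of 212 to 232.

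Some markers of other cell types in the tissue changed with diet. Over all genes, 8.49% were called lower and 6.64% higher on CR in MKO, and 5.37% and 4.66% in FLOX. Of 6 fibroblast markers, 4 were called lower on CR in MKO and 4 in FLOX, led by Col3a1, a fibrillar collagen, at -1.61 in MKO (limma adjusted p = 1.92e-05) and -1.36 in FLOX (limma adjusted p = 0.000537). Their summed intensity was 8011 to 13554 in CR MKO and 13856 to 18030 in control-diet MKO, and 8582 to 13008 in CR FLOX and 13231 to 16740 in control-diet FLOX, without overlap. Of 6 endothelial markers, 4 were called lower on CR in MKO and 1 in FLOX. Of 3 adipocyte markers none was called by limma, with 0 at an unadjusted p under 0.05. Of 8 fast fibre markers 1, Mylpf, was higher on CR in both genotypes, at 0.08 in MKO and 0.11 in FLOX, and the MKO call was lost with median centring (limma adjusted p = 0.0694).

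Mouse by mouse within groups, Cd74 tracked some of these lists. Over 26 mice and 9 lists, its deviation correlated with that of the macrophage list (r = 0.713, rho = 0.652, permutation adjusted p = 0.00117), the fibroblast list (r = 0.657, rho = 0.682, permutation adjusted p = 0.00207) and the fast fibre list (r = 0.549, rho = 0.509, permutation adjusted p = 0.0186). Without the 2 mice farthest out, r was 0.635, 0.58 and 0.425. The dendritic cell list had r = -0.00462 and the pan-leukocyte list 0.139, neither of which passed. The part of these cell types in the members' diet response was not tested.

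**Figure D5:**
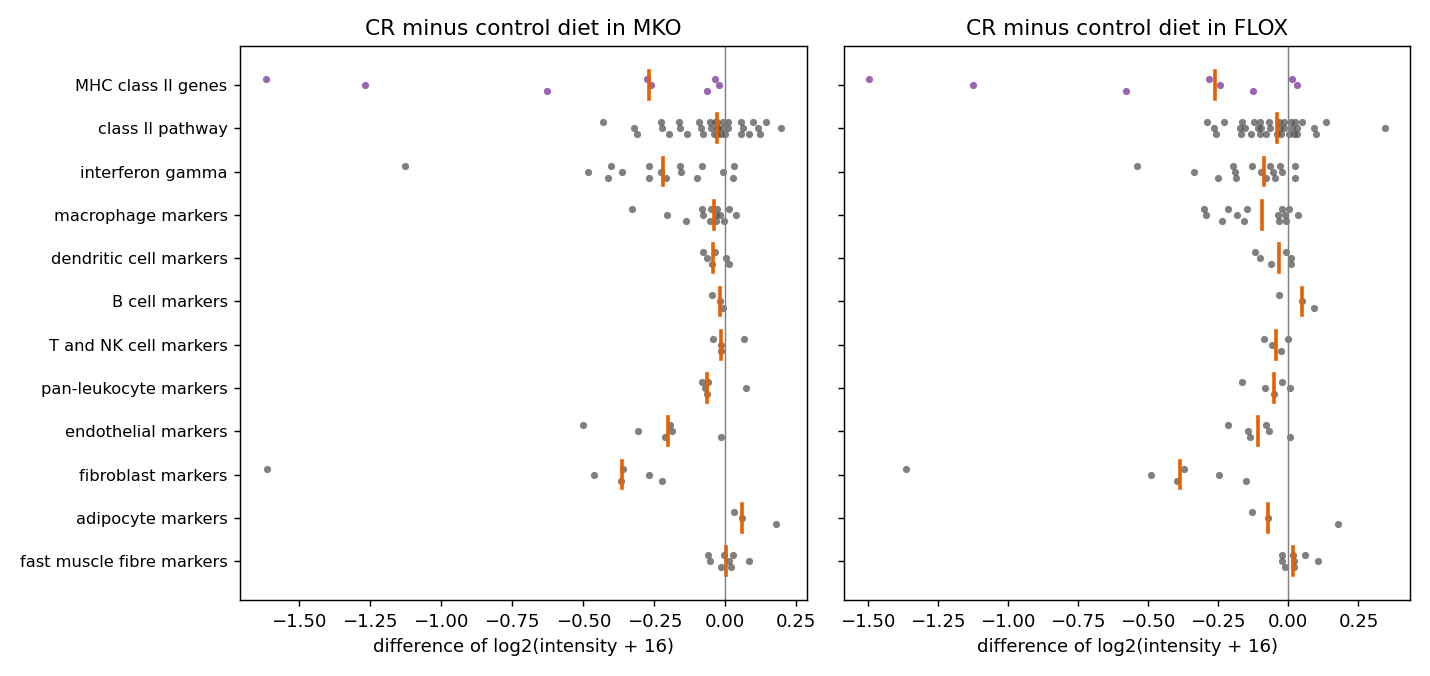
Log2 change, CR minus control diet, of single genes (points) in each list, with the list median as an orange bar, in MKO on the left and FLOX on the right. The class II genes have medians of -0.27 in MKO and -0.26 in FLOX, the macrophage list -0.04 and -0.09, with single markers at -0.33 in MKO and -0.30 in FLOX, and the fibroblast list -0.36 and -0.39.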

How the data were processed

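Total RNA of TA/EDL muscle was measured on 1 array per mouse. The deposited table holds 1 linear intensity per probe set, and how the authors computed it is not stated. Symbols came from the platform annotation, and 34945 probe sets named 1 gene. From the deposited intensity, log2(intensity + 16) was taken, without further normalization. Probe sets under the 30th percentile of mean value were left out, and the brightest of each gene was kept, which left 14847 genes. limma 3.58.1 in R 4.3.3 fitted 1 mean per group over 26 arrays (lmFit, eBayes), with Benjamini-Hochberg adjusted p-values and 0.05 as the threshold. Correlations used 100000 permutations within groups. The script was tested on simulated data, and figures were drawn with matplotlib 3.10.9.

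The members and lists were chosen with earlier results of these data known. Named were all members and Ppargc1a, up to 4 called genes of smallest p per pathway list and comparison, up to 2 markers per list and CR comparison, and the 6 genes most like the members. Titles share replicate numbers but give no pairing. Same-numbered mice had mean correlations of their deviations from -0.0994 to 0.2, and 8 of 26 arrays correlated best with their own number, so the numbers were not used as pairs. Alternatives covered the pseudocount, filter, normalization, probe set rule, array weights, the groups in the fit, the replicate block and leaving out mice.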

Additional observations from a re-analysis of the deposited data

Results flagged for a closer look

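Of 72 combinations of probe set and group examined, 9 held a mouse farther from the rest than Dixon's 95% limit allows, and chance flags about 1 in 20 groups. Control-diet MKO mouse 4 was high at 4 probe sets of H2-Aa, at intensities of 1618.5, 1275.7, 492.3 and 233.6, and at H2-Eb1 with 722.3. CR MKO mouse 5 was high at Cd74 with 612.1, at H2-Aa probe set 1438858_x_at with 448.1 and at H2-Ab1 with 467.9. Control-diet FLOX mouse 3 was high at 1 dim H2-DMb2 probe set with 173.5. In both MKO mice more than 1 class II gene stood apart.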

How the results depend on the processing

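No called result changed sign under any alternative run. Some small differences between genotypes that were not called did: leaving out 1 mouse at a time, Cd74 on the control diet ran from -0.15 to 0.10, H2-Ab1 from -0.20 to 0.01 and H2-Eb1 from -0.13 to 0.02, and the Cd74 interaction from -0.27 to 0.03. The count of members called lower in MKO on the control diet, 1 as reported, was 0 with quantile normalization, with median centring and with only the groups of the comparison in the fit. Averaged over the diets it was 1, against 2 as reported, with quantile normalization and with median centring. With only the groups of the comparison in the fit, 7 pathway genes were called on the control diet between genotypes, against 11, and 1 interferon gamma gene on CR, against 2. Leaving out 1 mouse at a time gave 0 to 1 members called on the control diet, 0 on CR, 1 to 3 averaged over the diets and 0 for the interaction. For the pathway list the counts ran from 6 to 9 for CR in MKO, 5 to 9 for CR in FLOX, 8 to 9 between genotypes on CR and 5 to 12 on the control diet, with the low values without control-diet FLOX mouse 5 (5 for CR in FLOX, 6 on the control diet) or mouse 6 (5 on the control diet). For interferon gamma genes they ran from 4 to 5, 2 to 4, 1 to 2 and 1 to 2 in the same order. The members' median change stayed between -0.31 and -0.21 for CR in MKO and between -0.29 and -0.24 in FLOX.

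With the replicate block, the replicate number entered as a block, 1 member was called on the control diet and 2 averaged over the diets. H2-DMa averaged over the diets was no longer called (limma adjusted p = 0.056) and H2-DMb2 was (limma adjusted p = 0.0357). Leaving out control-diet MKO mouse 4 and CR MKO mouse 5 together was chosen after seeing the data.

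Signal limits the dim genes: array minima were 56.6 to 62.8, which compresses the fold changes of Ciita and other dim probe sets. No detection calls or scan dates were used, so no batch was tested.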

Other observations

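Among other class II chains on the pathway list, the probe set annotated as H2-Ea read lower in MKO on the control diet. Its mean was 1109 ± 136 in control-diet MKO and 1320 ± 115 in control-diet FLOX (SD, n = 7 and 6, log2 difference -0.25, limma adjusted p = 0.0191). On CR the H2-Ea difference was -0.08 and was not called (limma adjusted p = 0.507). Averaged over the diets it was -0.17 (limma adjusted p = 0.0174). Its CR change in MKO was 0.06 and was not called (limma adjusted p = 0.645). H2-Ea was singled out after its values were seen. Whether this signal comes from the H2-Ea transcript in mice of this mixed background was not tested. Nothing is therefore read from it about the E molecule. The X and Y cores stood as a pair in the promoter windows of 3 chains outside the members, H2-DMb1, H2-Ob and H2-Eb2.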
